A study of Mus musculus with 36 samples.

Results

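Gene expression in the nucleus accumbens (NAc) was compared between mice with spared nerve injury (SNI) and mice with sham surgery. The 12 NAc libraries, taken by their labels, made up 12 of the 36 libraries of a study of 3 brain regions, and fell into 6 SNI libraries (numbered 7 to 12) and 6 sham libraries (numbered 1 to 6). All came from adult male C57BL/6 mice, and tissue was taken 2.5 months after the operation on the sciatic nerve. The labels name no transgene or drug in either group. The labels speak of pooled RNA and do not give how many mice stand behind a library, so that p-values measure the spread between these libraries, part of which may be technical. Levels are RPKM, reads per kilobase of gene scaled to the depth of the library.

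In spared nerve injury, the tibial and common peroneal branches of the sciatic nerve are cut and the sural branch is left intact, which gives long-lasting hypersensitivity of the paw and is a standard model of neuropathic pain. The NAc is the ventral part of the striatum and takes part in reward and motivation. Most of its neurons are GABAergic medium spiny neurons, of which the indirect-pathway kind carries the dopamine D2 receptor (Drd2) and an adenosine receptor that raises cAMP (Adora2a). Slc17a7 encodes the vesicular glutamate transporter VGLUT1, made by excitatory neurons of the cortex and scarcely by the striatum itself, so that its RNA in a NAc sample marks cortical or other excitatory tissue in the dissection.

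SNI libraries held 31208996 to 64868486 assigned reads and sham libraries 38614710 to 61496299, and mean depth differed by less than the spread (n = 6 each; exact permutation p = 0.693, two-sided). Both groups carried the markers of striatum. Drd2 lay at 73.5 to 112 RPKM in SNI libraries and at 74.8 to 106 RPKM in sham libraries. Adora2a lay at 40.5 to 111 RPKM in SNI libraries, against 45.7 to 95.9 RPKM in sham libraries. The summed level of 19 medium spiny neuron markers ran from 1828 to 2642 RPKM in SNI and from 1840 to 2582 RPKM in sham libraries, and none of the 19 was at 0.

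Slc17a7 was uneven in both groups. It lay at 178, 15.7, 19.2, 101, 37.7 and 2.53 RPKM in SNI 7 to 12, against 9.60, 97.8, 88.3, 113, 1.59 and 139 RPKM in sham 1 to 6. Set against the mean of the prefrontal cortex (PFC) sham libraries, 473 RPKM, this was 0.535% to 37.7% in SNI and 0.336% to 29.4% in sham libraries. Low and high libraries stood in each group, and the groups overlapped over most of the range. The means were 59.0 ± 67.9 RPKM in SNI and 74.9 ± 56.4 RPKM in sham libraries (SD, n = 6 each), a difference within the spread (exact permutation of log2 values over 924 assignments, p = 0.781, adjusted over 3 genes p = 0.781).

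The direction of the Slc17a7 difference rested on single libraries. The log2 difference, SNI minus sham, was −0.35 over all 12 libraries, 0.30 without SNI 12 and 0.02 without sham 6.

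**Figure D1:**
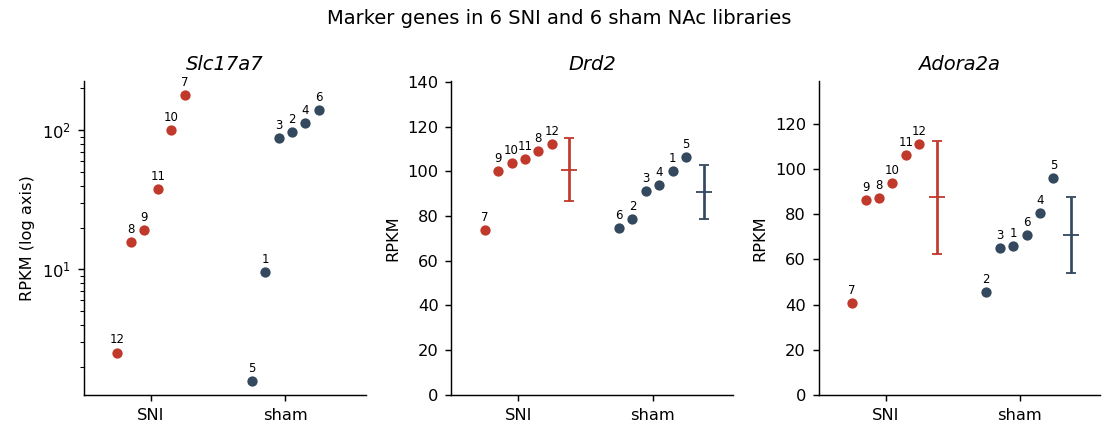
Slc17a7 (log axis), Drd2 and Adora2a in RPKM in each NAc library, SNI left of sham, with the library number above each point; bars beside the Drd2 and Adora2a points give the mean and SD of 6 libraries. Slc17a7 ranges from 2.53 to 178 RPKM within SNI and from 1.59 to 139 RPKM within sham, while SNI 7 has the lowest Drd2 and Adora2a.

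Drd2 was lower where Slc17a7 was higher. Over the 12 libraries, with group means removed, Drd2 correlated with Slc17a7 at Pearson r = −0.752 (permutation p = 0.00588, adjusted over 2 relations 0.0118) and Spearman rho = −0.86 (p = 0.00069, adjusted 0.00138). Without SNI 12 and sham 5, the libraries farthest from the median, r was −0.702. For Adora2a, r was −0.586 (permutation p = 0.0403, adjusted 0.0403) and rho −0.545 (p = 0.0722, adjusted 0.0722), and r was −0.38 without those libraries. On the linear RPKM scale r for Adora2a was −0.66, and −0.389 without sham 6 and SNI 7, the farthest libraries there. Leaving out extremes narrows the range of Slc17a7, so that the fall cannot show which libraries carried the relation. In bulk tissue, fewer cells of a type and less RNA per cell cannot be told apart.

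The SNI means of the indirect-pathway receptors were above the sham means within the spread of the libraries. Drd2 averaged 101 ± 14 RPKM in SNI and 90.8 ± 12.2 RPKM in sham libraries (SD, n = 6 each; exact permutation p = 0.240, adjusted 0.487). Adora2a averaged 87.4 ± 25.1 RPKM in SNI and 70.6 ± 16.8 RPKM in sham libraries (SD, n = 6 each; exact permutation p = 0.325, adjusted 0.487). SNI 7 had the lowest Drd2 and Adora2a of the SNI libraries and the highest Slc17a7 of all 12. Without SNI 7, the library that goes most against the difference, the log2 differences became 0.23 for Drd2 and 0.48 for Adora2a, and the adjusted exact permutation p = 0.0455 for each describes that choice. Leaving out any other library gave adjusted exact permutation p-values of 0.315 or more for both genes. With the GC slope described below as a covariate the difference of Adora2a was 0.0020 and that of Drd2 0.08.

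Genes of cortical excitatory neurons followed Slc17a7 closely. In limma, a linear model with moderated errors, fitted to log2(RPKM + 0.5) with surgery and log2 Slc17a7 as terms, 656 of 15263 genes had a slope at an adjusted p under 0.05. Of these, 489 (3.2% of the genes tested) rose with Slc17a7 and 167 (1.09%) fell with it. Among the 14 genes tested of a cortical excitatory list, Slc17a7 itself left out, 9 rose with it and 1 fell.

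The positive slopes of smallest p belonged to neurogenic transcription factors of cortical projection neurons, to a zinc transporter of their vesicles and to neuropeptides. Neurod6 rose by 0.69 ± 0.05 log2 units (SE) per doubling of Slc17a7 (limma, adjusted p = 2.1e-05). It lay at 10.8, 0.571, 1.12, 5.43, 2.94 and 0.0981 RPKM in SNI 7 to 12, against 0.493, 7.21, 5.83, 7.8, 0.146 and 6.74 RPKM in sham 1 to 6. In both groups its lowest libraries were those lowest in Slc17a7. Cck, the cholecystokinin precursor of many cortical neurons, had a slope of 0.66 ± 0.04, Slc30a3, the synaptic vesicle zinc transporter, of 0.64 ± 0.05, and Nov, a secreted matricellular protein, of 0.60 ± 0.05. The T-box factor Tbr1 (0.59), Neurod2 (0.52), the interneuron peptide Vip (0.38) and the somatostatin receptor Sstr3 (0.32) completed the 8 positive slopes, of which the highest adjusted p was 4.7e-05 for Nov.

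The 8 negative slopes of smallest p were shallower. Gpr83, a G protein-coupled receptor, fell by 0.11 per doubling of Slc17a7, and Akap5, the postsynaptic anchor of protein kinase A, fell by 0.09. The chloride channel family member Clic6 (−0.13), the ER degradation factor Derl3 (−0.18), the cysteine dioxygenase Cdo1 (−0.08), the inhibitor of protein phosphatase 1 Ppp1r2 (−0.08), Pdzd2 (−0.12) and Fam84a (−0.08) were the others, the highest adjusted p being 0.0023 for Fam84a. Akap5 differed little between the groups themselves, at 59.0 to 91.3 RPKM in SNI libraries and 65.1 to 90.2 RPKM in sham libraries.

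Other lists followed Slc17a7 to different degrees, beside 3.2% of all genes that rose and 1.09% that fell. Of 19 medium spiny neuron genes 0 rose and 1 fell. Of 8 indirect-pathway genes 1 rose and 1 fell, and of 9 direct-pathway genes 0 rose and 1 fell. Drd2 had a slope of −0.07 (limma, adjusted p = 0.0618). Of 11 deep cortical layer genes 4 rose and of 8 upper layer genes 1, and 0 fell in either list. Of 20 genes of presynaptic release, 10 rose with Slc17a7, and of 22 neuropeptides and their receptors 7 rose and 2 fell. Of 18 serotonin and adrenergic receptors 4 rose and 5 fell. Of 18 clock genes 1 rose and 4 fell. None of the 13 astrocyte, 16 oligodendrocyte and 14 microglial genes tested passed in either direction. At the shares over all genes, lists this small would hold few or none. Between SNI and sham libraries themselves, 7 of the 20 presynaptic genes lay above 0 (median log2 fold change −0.04) and 9 of the 22 neuropeptide genes (median −0.08).

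SNI with sham was then compared over the 15264 genes whose mean over the 12 libraries reached 0.5 RPKM. With limma, 0 genes (0%) passed an adjusted p of 0.05, and the lowest adjusted p was 0.0907. At an unadjusted p under 0.05 stood 126 genes higher in SNI (0.825%) and 534 lower (3.5%). With a fold of at least 1.3 as well, 19 were higher (0.124%) and 60 lower (0.393%). The SNI and sham libraries did not overlap at all for 2 genes on the higher side (0.0131%) and 18 on the lower side (0.118%). Below, a gene at an unadjusted p under 0.05 is called nominal, and such genes are given by their levels and order. The predominance of lower genes moved with the scaling: after median-of-ratios scaling 304 of 574 nominal genes were higher, and after quantile scaling 265 of 582. Genes without overlap were 10 higher and 9 lower after median-of-ratios scaling, and 6 higher and 7 lower after quantile scaling. These scalings moved the median of all genes by 0.02 and 0.01 on the log2 scale. The genes given below for an SNI difference kept their direction under both, and lists whose median did not are pointed out.

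Adding the cortical content to the model moved this comparison little. With log2 Slc17a7 as a covariate, 702 genes (4.6%) had an unadjusted p under 0.05, of which 586 were among the 660 without it, 88.8% of those without and 83.5% of those with the covariate. Of the 660, 5 followed Slc17a7 at its own adjusted threshold (0.758%), against 4.3% of all genes. Genes that follow Slc17a7 vary with it inside both groups, which widens their error without the covariate. The low share therefore cannot measure how cortical content bears on the comparison. The log2 fold change of a gene shifted by a median of 0.006 with the covariate, and by 0.033 among the genes that follow Slc17a7. In this model the shift is set by the gene's slope and the group difference in log2 Slc17a7 (−0.35). With Slc17a7 near balance between the groups, a small shift was fixed in advance for genes of shallow slope. For the 24 leading genes (12 in each direction with a fold of 1.3 or more, ranked by p), the log2 fold change with the covariate was 91.1% to 107% of that without. Of these 24, 1 followed Slc17a7, the clock gene Per2, which fell by 0.10 per doubling of Slc17a7 (adjusted p = 0.0367). With the covariate, 1 gene passed the adjusted threshold, the small nucleolar RNA gene Gm26387.

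Libraries also differed by the GC content of the genes they were rich in. The slope of a library's log2 values on transcript GC content was −0.200, −0.028, 0.072, 0.152, 0.115 and 0.147 per 10 GC points in SNI 7 to 12, and −0.185, −0.131, −0.065, 0.045, 0.022 and 0.057 in sham 1 to 6. The means were 0.043 ± 0.136 in SNI and −0.043 ± 0.1 in sham libraries (SD, n = 6 each; exact permutation p = 0.234). SNI 7 had the lowest slope of the 12, and without it the SNI mean was 0.092, against −0.043 in sham libraries. The exact permutation p was then 0.039, with 462 assignments, for a set without the library that goes most against the difference. With this slope as a covariate, an alternative chosen after seeing the data, 454 genes (2.97%) had an unadjusted p under 0.05 and 0 passed the adjusted threshold.

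The covariate acted unequally on the 2 directions of the leading genes. The 12 higher genes kept a median of 48.5% of their log2 fold change (36.1% to 78.3%), and the 12 lower genes 90.9% (75.3% to 111%). The median GC content was 56.6% for the higher genes, 44.6% for the lower genes and 49.6% for all genes tested. The part of the GC content of libraries in the differences was not tested beyond this covariate.

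**Figure D2:**
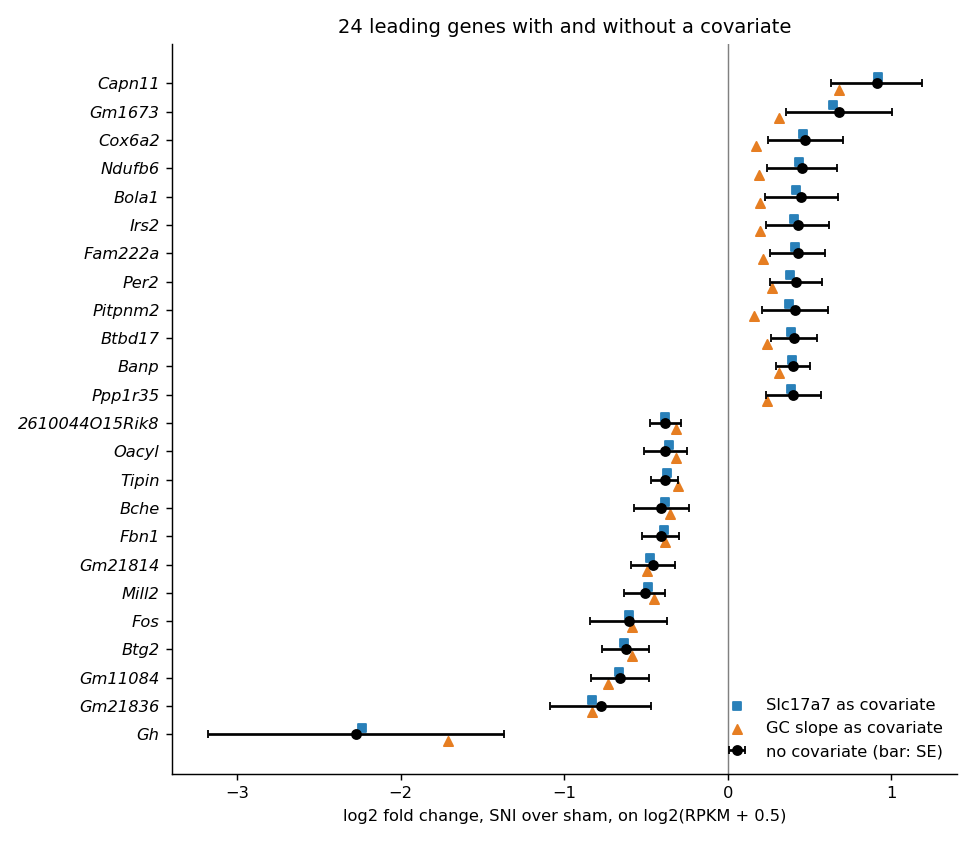
Log2 fold change, SNI over sham, of the 24 leading genes on the log2(RPKM + 0.5) scale: black points with SE bars without a covariate, blue squares with Slc17a7 and orange triangles with the GC slope of the library as covariate. The squares lie on the black points, at 91.1% to 107% of their value, whereas the triangles of the 12 higher genes lie nearer to 0, at a median of 48.5%. The shift of a square is set by the gene's slope on Slc17a7 and the small group difference in log2 Slc17a7.

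SNI 7 stood apart from the other SNI libraries. On the first principal component, which held 36.2% of the variance, it lay at −29.3, against 2.52 to 26.95 in the other SNI libraries and −19.7 to 9.19 in sham libraries. Without it, 1578 genes were higher (10.3%) and 1566 lower (10.3%) at an unadjusted p under 0.05, and 3 genes passed the adjusted threshold. These 3 were Gm26387, Tipin and the clock gene Per1. Their adjusted p was 0.015 for Gm26387, 0.015 for Tipin and 0.028 for Per1. The genes higher without SNI 7 had a median GC content of 57.2%, and the lower ones 45.0%. With SNI 7 left out and the GC slope as a covariate, 1061 genes were nominal and 0 passed the adjusted threshold.

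Leaving out the libraries of lowest and highest Slc17a7 in each group (SNI 7, SNI 12, sham 5 and sham 6) gave 4 genes past the adjusted threshold, namely Gm26387, Tipin, Per2 and the transcription factor gene Trerf1. In these 8 libraries the count past the threshold was 760 with Slc17a7 as covariate and 0 with the GC slope as covariate. Their mean GC slope was 0.078 in SNI and −0.084 in sham libraries (exact permutation p = 0.0571, with 70 assignments).

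**Figure D3:**
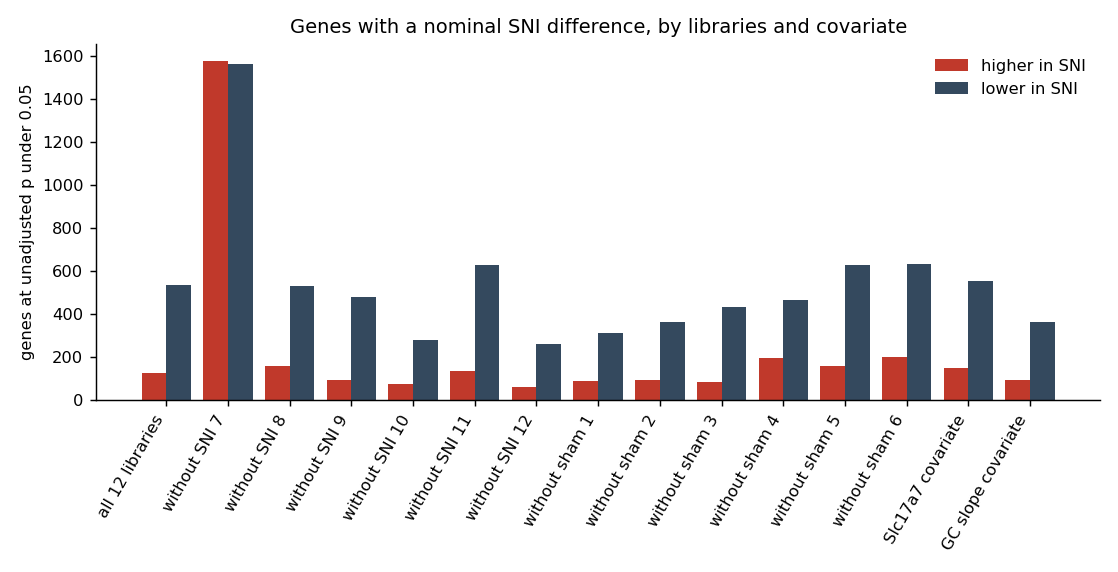
Number of genes at an unadjusted p under 0.05, higher in SNI (left bar of each pair) and lower in SNI (right bar), with all 12 libraries, with each library left out in turn, and with Slc17a7 or the GC slope as covariate. Leaving out SNI 7 gives 1578 higher and 1566 lower genes, against 126 and 534 with all libraries.

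Tipin, which encodes a partner of the Timeless protein at the replication fork, had the smallest p of the protein-coding genes. It lay at 9.94 RPKM in SNI 7 and at 7.51, 7.33, 7.38, 7.59 and 6.12 RPKM in SNI 8 to 12, against 9.81 to 10.6 RPKM in sham libraries. Of the SNI libraries, SNI 7 alone reached into the narrow sham range. The log2 fold change was −0.39 ± 0.08 (SE; adjusted p = 0.78), −0.46 without SNI 7 (adjusted p = 0.015), −0.37 with Slc17a7 and −0.30 with the GC slope as covariate. The gene lies on the plus strand at chr9:64281581-64305424 (GRCm38, GENCODE M21).

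Gm26387, singled out after its values were seen, had the lowest p of all genes. It is an annotated small nucleolar RNA on the plus strand at chr5:107907345-107907476, inside an intron of the ribosomal protein gene Rpl5 on the same strand. It lay at 1.75 to 2.69 RPKM in SNI libraries, against 3.18 to 3.94 RPKM in sham libraries, with no overlap. These levels rest on few reads, 9 to 23 per SNI library and 19 to 32 per sham library. The log2 fold change was −0.58 ± 0.08 (SE; adjusted p = 0.0907). Its host Rpl5 lay at 23.9 to 27.9 RPKM in SNI and 24.4 to 29.8 RPKM in sham libraries, a log2 fold change of −0.03 ± 0.06. Poly-A selected libraries hold such short RNAs only in part, and whether these reads came from the small RNA or from unspliced host RNA was not tested.

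Activity-induced genes stood next. Neuronal firing induces a first wave of genes through calcium and cAMP signals that act on the factors CREB and SRF, and the wave decays within hours, so that levels also depend on what an animal did shortly before death. Of 26 immediate-early genes tested, 14 lay above 0 with a median log2 fold change of 0.03, against 39.3% above 0 and a median of −0.02 over all genes. None was higher and 3, Btg2, Fos and Npas4, were lower at an unadjusted p under 0.05, beside 0.825% and 3.5% of all genes. The median turned to −0.06 with the GC slope as covariate. SNI 7 had the lowest score of the list, −0.45, against −0.06 to 0.20 in the other SNI libraries and −0.18 to 0.19 in sham libraries. Without it, 7 of the 26 genes were higher and 1 lower at an unadjusted p under 0.05, beside 10.3% of all genes in each direction. The median was then 0.06 (0.11 with the GC slope as well).

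Btg2, an antiproliferative gene induced by neuronal activity and by p53, was lower in each SNI library than the sham median. It lay at 2.60, 3.56, 3.65, 2.98, 2.35 and 2.42 RPKM in SNI 7 to 12, against 4.81, 4.68, 6.04, 4.82, 5.50 and 3.02 RPKM in sham 1 to 6. Only sham 6 fell within the SNI range. The log2 fold change was −0.62 ± 0.14 (SE; adjusted p = 0.78), −0.63 with Slc17a7, −0.58 with the GC slope and −0.60 without SNI 7. Its promoter is shown because the gene leads the activity-induced list and its window holds a full cAMP response element, the site bound by CREB. The RefSeq window (GRCm38.p6, 250 bases before to 50 after the start, minus strand, chr1:134079106-134079405) reads as follows, with the element TGACGTCA in capitals.
Btg2 promoter: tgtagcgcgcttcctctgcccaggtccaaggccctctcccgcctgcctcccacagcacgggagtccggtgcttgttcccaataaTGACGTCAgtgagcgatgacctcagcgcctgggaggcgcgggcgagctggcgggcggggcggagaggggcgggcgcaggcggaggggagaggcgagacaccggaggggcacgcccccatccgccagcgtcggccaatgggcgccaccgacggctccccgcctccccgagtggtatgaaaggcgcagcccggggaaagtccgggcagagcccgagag
The element starts at position −166 from the transcription start. It is its own reverse complement, and 1.79% of 32851 RefSeq promoter windows of this length hold it on either strand.

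Fos, a subunit of the AP-1 factor, showed the same order with a wider spread. It lay at 2.30, 4.76, 5.25, 4.23, 2.33 and 1.80 RPKM in SNI 7 to 12, against 4.98, 5.32, 7.05, 5.23, 5.79 and 3.23 RPKM in sham 1 to 6. Each SNI library was below the sham median, and 3 lay below all sham libraries. For Fos the log2 fold change was −0.61 ± 0.24 (SE; adjusted p = 0.78). It was −0.52 and no longer nominal without SNI 7, −0.24 with the GC slope and without SNI 7, and −0.44 without the libraries of extreme Slc17a7. Npas4, a factor switched on by calcium influx, lay at 2.24 to 5.36 RPKM in SNI and 3.85 to 6.98 RPKM in sham libraries, with a log2 fold change of −0.36 ± 0.17 (adjusted p = 0.78) and −0.25 without SNI 7.

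Among clock genes, the members at an unadjusted p under 0.05 were higher in SNI. The circadian clock is a loop in which CLOCK or its homologue NPAS2 drives the Per and Cry genes through E-boxes, and the PER and CRY proteins then repress it; glucocorticoids and cAMP induce Per1 as well. Of 18 clock genes tested, 14 lay above 0 with a median of 0.06, beside 39.3% of all genes above 0. The nominal ones were 2, Per2 and Npas2, both higher, beside 0.825% nominal and higher over all genes. The labels do not give the hour of tissue collection, and its part in these levels was not tested.

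Per2 lay at 6.17, 9.20, 9.85, 9.78, 10.3 and 15.1 RPKM in SNI 7 to 12, against 7.16, 6.86, 6.51, 6.4, 9.32 and 7.17 RPKM in sham 1 to 6. SNI 7 was the lowest of all 12 libraries, and sham 5 the only sham library in the range of the other SNI libraries. On the log2 scale the difference was 0.42 ± 0.16 (SE; adjusted p = 0.78), 0.38 with Slc17a7, 0.27 with the GC slope and 0.54 without SNI 7. Npas2, the forebrain homologue of Clock, lay at 14.8 to 23.6 RPKM in SNI and 13.8 to 18.3 RPKM in sham libraries, with a log2 fold change of 0.22 ± 0.10 (adjusted p = 0.78) and 0.10 with the GC slope.

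Per1 was singled out after its values were seen. It lay at 10.2 RPKM in SNI 7 and at 19.98, 21.8, 21.5, 22.5 and 22.2 RPKM in SNI 8 to 12, against 14.1 to 17.7 RPKM in sham libraries. SNI 7 was below every sham library and the other 5 were above every one. On the log2 scale Per1 differed by 0.27 ± 0.16 over all libraries (SE; adjusted p = 0.78) and 0.44 without SNI 7 (adjusted p = 0.028). With the GC slope as covariate it was 0.08 with SNI 7 and 0.33 without. The first of its RefSeq promoter windows (GRCm38.p6, plus strand, chr11:69098699-69098998) is shown, chosen after the values were seen, because it holds the E-box through which the clock loop acts; the letters CACGTG are in capitals.
Per1 promoter: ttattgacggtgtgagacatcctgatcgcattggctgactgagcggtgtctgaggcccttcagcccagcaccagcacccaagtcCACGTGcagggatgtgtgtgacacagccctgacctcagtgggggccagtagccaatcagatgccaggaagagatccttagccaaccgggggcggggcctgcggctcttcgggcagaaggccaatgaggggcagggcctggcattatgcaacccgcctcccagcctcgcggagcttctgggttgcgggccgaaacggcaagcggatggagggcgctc
The E-box starts at position −166 and is its own reverse complement. Of all RefSeq windows of this length, 7.15% hold these letters.

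**Figure D4:**
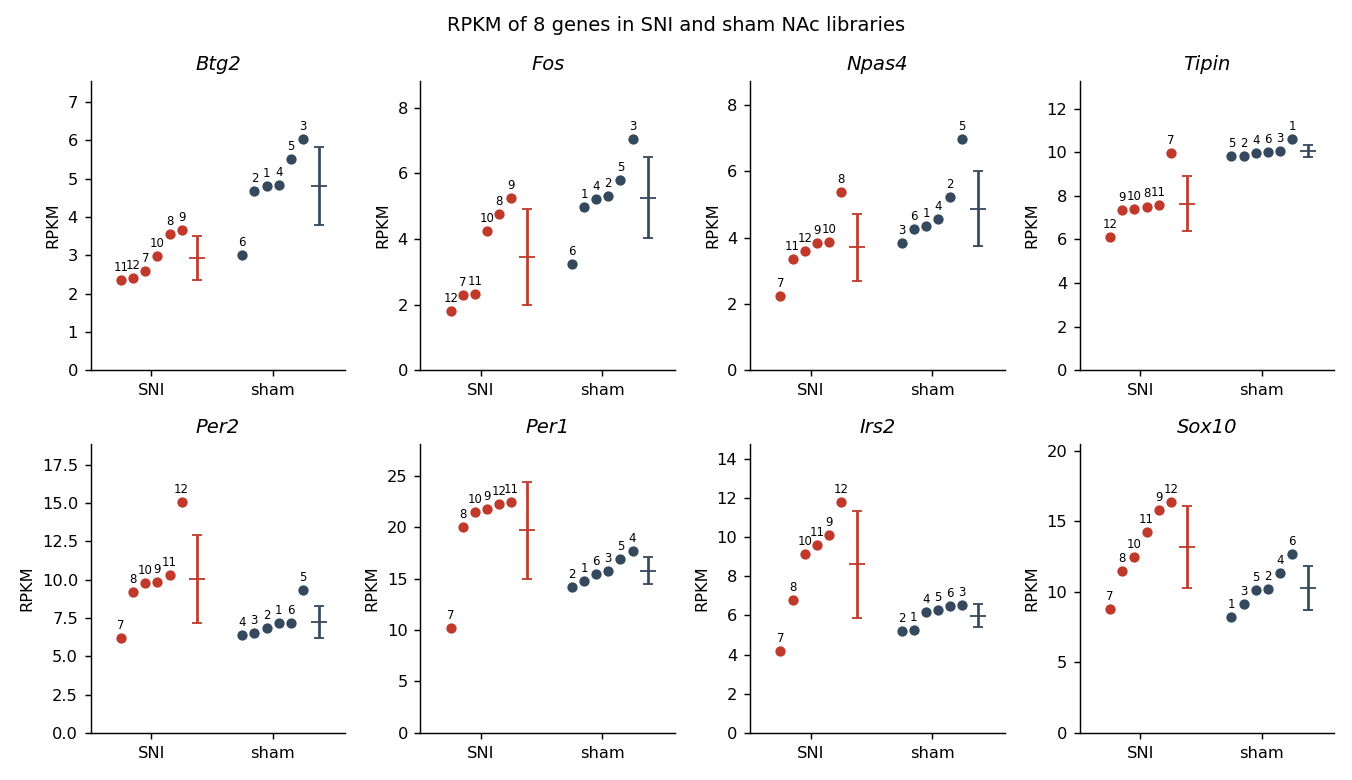
RPKM of Btg2, Fos, Npas4, Tipin, Per2, Per1, Irs2 and Sox10 in each NAc library, SNI left of sham, with library numbers above the points and bars for the mean and SD of 6 libraries. For Btg2 only sham 6 lies in the SNI range, and for Per1 SNI 7 at 10.2 RPKM lies below and the other SNI libraries above all sham libraries.

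Genes that respond to glucocorticoids had no nominal member. Of 18 tested, 14 were above 0 with a median of 0.11, which was 0.18 without SNI 7 and 0.04 with the GC slope as covariate. SNI 12 stood apart, with a mean score of 0.52, against −0.20 to 0.16 in the other SNI libraries and −0.19 to 0.01 in sham libraries. Without the libraries of extreme Slc17a7 the median was 0.06, with 11 of 17 above 0. Tsc22d3, the leucine zipper gene GILZ that glucocorticoid receptor binding induces, lay at 16.8 RPKM in SNI 12 and 8.10 to 12.3 RPKM in the other SNI libraries, against 8.67 to 10.2 RPKM in sham libraries, a log2 fold change of 0.25 ± 0.13 (SE; adjusted p = 0.78).

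Irs2, which couples insulin and IGF receptors to their kinases, led the growth factor genes. It lay at 4.18, 6.78, 10.1, 9.13, 9.62 and 11.8 RPKM in SNI 7 to 12, against 5.22 to 6.55 RPKM in sham libraries. SNI 7 was below and the other 5 SNI libraries above all sham libraries. Its log2 fold change was 0.43 ± 0.19 (SE; adjusted p = 0.78), 0.61 without SNI 7 and 0.20 with the GC slope. Over 15 neurotrophic factors and receptors the median was 0.02, with 8 above 0. Irs2 was the nominal member, beside 0.825% nominal and higher over all genes.

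Chaperone genes were read as a cytosolic and an ER list. The 12 tested cytosolic heat shock genes all lay above 0 with a median of 0.11, although none was nominal; after quantile scaling 11 lay above 0. Without the libraries of extreme Slc17a7 the median was 0.0041, with 6 of 11 above 0. The mean score of the list was 0.41 in SNI 12, −0.22 to 0.14 in the other SNI libraries and −0.19 to 0.02 in sham libraries. Their leading member, the heat shock transcription factor Hsf1, lay at 13.3 to 22.2 RPKM in SNI and 13.1 to 17.8 RPKM in sham libraries. Of 21 chaperones and sensors of the endoplasmic reticulum, 12 lay above 0 with a median of 0.03, and SNI 12 again had the highest score of the list, 0.29. Sdf2l1, a partner of the chaperone BiP, lay at 3.66, 5.10, 5.35, 4.61, 3.41 and 9.10 RPKM in SNI 7 to 12, against 3.33 to 4.67 RPKM in sham libraries. SNI 12 was the highest of all libraries for it. The log2 fold changes were 0.35 ± 0.18 for Sdf2l1 and 0.22 ± 0.12 for Pdia4, a disulfide isomerase (SE; adjusted p = 0.78 each).

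The Sdf2l1 promoter is shown as that of the leading ER chaperone gene, a class known for CCAAT boxes bound by NF-Y ahead of the start (RefSeq, GRCm38.p6, minus strand, chr16:17132334-17132633). The letters CCAAT, read on either strand (ATTGG on the printed one), are in capitals.
Sdf2l1 promoter: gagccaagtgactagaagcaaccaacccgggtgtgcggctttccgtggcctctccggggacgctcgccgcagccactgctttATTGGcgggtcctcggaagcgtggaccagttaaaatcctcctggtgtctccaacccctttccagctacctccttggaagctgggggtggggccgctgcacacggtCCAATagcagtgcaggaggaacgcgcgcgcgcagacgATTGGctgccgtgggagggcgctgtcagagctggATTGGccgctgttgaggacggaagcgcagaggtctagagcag
The window holds 4 such matches, the last of them as printed lying after the transcription start, and 37.4% of all RefSeq windows hold at least 1. The Btg2 and Per1 windows printed above hold 2 and 3. The longer ER stress element, CCAAT with CCACG after 9 bases, has 0 matches in the Sdf2l1 window, and 0.119% of all windows hold it. Nfya, which encodes the DNA-binding subunit A of NF-Y itself, was the protein-coding gene on the higher side whose groups did not overlap. It lay at 3.90 to 5.001 RPKM in SNI libraries, against 3.60 to 3.83 RPKM in sham libraries, a log2 fold change of 0.16 ± 0.05 (SE; adjusted p = 0.78), and 0.13 with the GC slope. Whether the level of Nfya bears on that of Sdf2l1 was not tested.

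Other leading genes on the higher side came with unadjusted p-values on either side of 0.05. Ndufb6, a subunit of mitochondrial complex I, lay at 9.52 to 22.4 RPKM in SNI and 7.97 to 17.6 RPKM in sham libraries. Cox6a2, a subunit of cytochrome oxidase, lay at 1.80 to 5.23 RPKM in SNI and 1.66 to 3.55 RPKM in sham libraries. Bola1, a mitochondrial iron-sulfur assembly factor, lay at 1.15 to 4.42 RPKM in SNI and 0.977 to 2.03 RPKM in sham libraries. None of the 3 was nominal, and their log2 fold changes of 0.45, 0.47 and 0.45 became 0.19, 0.17 and 0.20 with the GC slope as covariate. The phosphatidylinositol transfer protein gene Pitpnm2 stood at 0.41 without and 0.16 with that covariate, and Gm1673 at 0.68 and 0.31, neither of them nominal. Fam222a (0.43 and 0.22), Btbd17 (0.40 and 0.24) and Ppp1r35 (0.40 and 0.24) were nominal without the covariate, and Fam222a and Btbd17 also with it.

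Banp and Capn11 kept more of their difference with the GC slope as covariate. Banp, a nuclear matrix protein that binds unmethylated CGCG motifs, lay at 2.71 to 4.84 RPKM in SNI and 2.23 to 2.91 RPKM in sham libraries. The groups overlapped only between SNI 7 and sham 6, and the log2 fold change was 0.40 ± 0.10 (SE; adjusted p = 0.78), 0.31 with the GC slope. Capn11, a calpain protease best known from testis, lay at 0.461, 0.547, 1.26, 1.62, 1.20 and 0.404 RPKM in SNI 7 to 12, against 0.0287, 0.0721, 0.0593, 0.0984, 0.471 and 0.826 RPKM in sham 1 to 6. Sham 1 to 4 were low, at 3, 12, 8 and 16 reads, and sham 5 and 6 were within the SNI range. The log2 fold change of Capn11 was 0.91 ± 0.28 (SE; adjusted p = 0.78) and 0.68 with the GC slope. With the GC slope and without SNI 7 it was 0.55 and not nominal.

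On the lower side, 8 protein-coding genes of those whose groups did not overlap are named. The 18 lower genes without overlap became 9 after median-of-ratios and 7 after quantile scaling, so that the lack of overlap depended on the scaling. Fbn1, the microfibril protein fibrillin-1, lay at 0.344 to 0.830 RPKM in SNI and 0.832 to 1.24 RPKM in sham libraries (log2 fold change −0.41 ± 0.11). Chrnb1, the muscle-type beta 1 subunit of the nicotinic acetylcholine receptor, lay at 0.886 to 1.17 RPKM in SNI and 1.18 to 1.56 RPKM in sham libraries (−0.27 ± 0.07). Dnajc8, a splicing-associated J-domain protein, lay at 34.2 to 38.4 RPKM in SNI and 38.5 to 43.9 RPKM in sham libraries (−0.15 ± 0.04). The others named were Gm6592 (−0.35), the mitochondrial carbonic anhydrase Car5b (−0.17), the peptidyl-tRNA hydrolase Ptrh2 (−0.16), AA474331 (−0.12) and the zinc transporter Slc30a6 (−0.12). All had an adjusted limma p of 0.78, and all 8 stayed on the same side of 0 with the GC slope as covariate.

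The remaining lower genes of smallest p were mostly of low level. Mill2, an MHC class I-like gene, lay at 0.532 to 0.963 RPKM in SNI and 0.874 to 1.87 RPKM in sham libraries (log2 fold change −0.51 ± 0.13). Bche, butyrylcholinesterase, lay at 0.681 to 1.28 RPKM in SNI and 1.03 to 2.63 RPKM in sham libraries (−0.41 ± 0.17). Oacyl (−0.38), 2610044O15Rik8 (−0.38), Gm11084 (−0.66), Gm21814 (−0.46) and Gm21836 (−0.78) were the others beside Gh, the growth hormone gene (−2.27). Gm21836 had at most 5 reads in any library.

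Gh and Prl, hormones of the anterior pituitary that striatum does not make, set sham 1 apart. Gh lay at 0.111 to 3.02 RPKM in SNI libraries, against 71.7, 3.58, 10.03, 6.01, 0.0203 and 2.04 RPKM in sham 1 to 6. Prl, added after its values were seen, reached 31.2 RPKM in sham 1 and at most 1.61 RPKM in the other sham libraries, against at most 0.396 RPKM in SNI libraries. Their presence in NAc libraries was not traced further.

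Cell type lists were read by counts and medians, beside 39.3% of all genes above 0 and a median of −0.02. All 19 medium spiny neuron genes lay above 0 (median 0.08), as did 8 of 8 indirect-pathway genes (0.06) and 5 of 9 direct-pathway genes (0.02). With Slc17a7 as covariate these medians were 0.06, 0.07 and −0.0009, with 18, 8 and 4 genes above 0. With the GC slope as covariate they were 0.03, 0.01 and −0.00. Without SNI 7 they were 0.11, 0.15 and 0.07, and with the GC slope and without SNI 7 0.16, 0.21 and 0.13. Nominal genes without SNI 7 numbered 5, 3 and 2 higher and 0, 0 and 1 lower, beside 10.3% of all genes in each direction. The mean score of the medium spiny list was −0.29 to 0.18 in SNI libraries and −0.30 to 0.14 in sham libraries. The indirect-pathway receptor Gpr6 lay at 20.1 RPKM in SNI 7 and 31.3 to 45.0 RPKM in SNI 8 to 12, against 21.3 to 29 RPKM in sham libraries (log2 fold change 0.32 ± 0.15, adjusted p = 0.78). Eya1, a direct-pathway gene, had a log2 fold change of −0.21. Of the cortical excitatory genes, 4 of 15 lay above 0 with a median of −0.17, which was −0.34 without SNI 7 and −0.12 with Slc17a7 as covariate.

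In the oligodendrocyte lineage, 3 genes were nominal, 2 higher and 1 lower, beside 0.825% and 3.5% of all genes. Myrf, the factor that drives myelin genes, lay at 9.80 to 12.6 RPKM in SNI and 8.28 to 10.9 RPKM in sham libraries (log2 fold change 0.24 ± 0.08). Sox10, a lineage factor, lay at 8.75 to 16.4 RPKM in SNI and 8.19 to 12.7 RPKM in sham libraries (0.33 ± 0.14, and 0.16 and not nominal with the GC slope). Pdgfra, the growth factor receptor of precursors, lay at 11.4 to 13.4 RPKM in SNI and 12.8 to 15.2 RPKM in sham libraries (−0.13 ± 0.05). All 3 had an adjusted p of 0.78. Of 16 oligodendrocyte and myelin genes, 11 lay above 0 with a median of 0.05. Of 7 precursor genes, 3 lay above 0 with a median of −0.02, which turned to 0.03 after quantile scaling and 0.05 with the GC slope. Gpr17, a receptor of cells leaving the precursor stage, had a log2 fold change of 0.13.

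Other cell types were read in the same way. Among 13 astrocyte genes 4 lay above 0 (median −0.05), among 14 microglial genes 6 (median −0.02, Aif1 at −0.13), among 10 endothelial genes 5 (median 0.03, the transporter gene Slco1a4 at −0.18) and among 9 mural genes 3 (median −0.05, Abcc9 at 0.14); the microglial median turned to 0.01 after median-of-ratios scaling. None of these lists had a nominal member with all 12 libraries. Without SNI 7, 4 astrocyte, 3 microglial and 2 endothelial genes were nominal, beside 10.3% of all genes in each direction. Of 12 fibroblast and meningeal genes, 0 lay above 0 and the median was −0.51. Fbn1 was the nominal member, beside 3.5% nominal and lower over all genes. Their summed level was 13.5 to 30.6 RPKM in SNI and 14.3 to 111 RPKM in sham libraries, sham 4 being the highest. The mean score of the list was 1.83 in sham 4, −0.54 to 0.30 in SNI libraries and −0.45 to 0.68 in the other sham libraries. Without sham 4 the median of the list was −0.17.

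**Figure D5:**
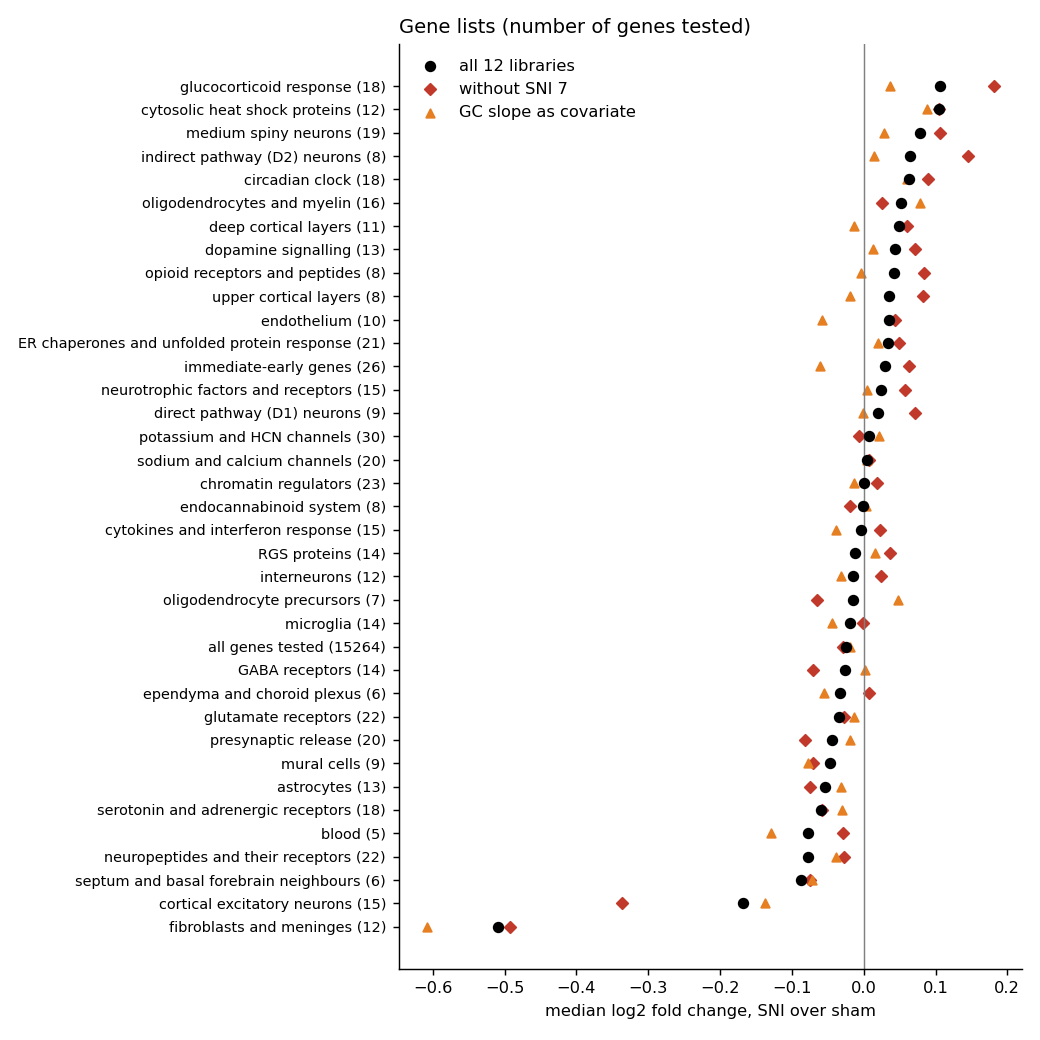
Median log2 fold change, SNI over sham, of each gene list with the number of genes tested in brackets: black points with all 12 libraries, red diamonds without SNI 7, orange triangles with the GC slope as covariate. Fibroblast and meningeal genes lie lowest at −0.51, glucocorticoid response genes highest at 0.11.

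Among transmitter and channel genes 1 of 18 serotonin and adrenergic receptors, 1 of 13 dopamine signalling genes and 1 of 30 potassium and HCN channels were nominal, beside 0.825% higher and 3.5% lower over all genes. Htr6, the Gs-coupled serotonin receptor of medium spiny neurons, lay at 1.98 to 4.10 RPKM in SNI and 1.99 to 2.76 RPKM in sham libraries (log2 fold change 0.28 ± 0.12). Maoa, the monoamine oxidase that breaks down serotonin and catecholamines, lay at 8.07 to 11 RPKM in SNI and 9.31 to 11.5 RPKM in sham libraries (−0.16 ± 0.07). Kcnn3, the calcium-activated potassium channel SK3, lay at 7.08 to 10.3 RPKM in SNI and 6.75 to 7.98 RPKM in sham libraries (0.19 ± 0.07). Each had an adjusted p of 0.78 and kept its sign with the GC slope, at 0.14, −0.10 and 0.14. Of 30 potassium and HCN channel genes, 17 lay above 0 with a median of 0.01, and of 13 dopamine signalling genes 8, with a median of 0.04. Glutamate receptors had 9 of 22 members above 0, with the group III metabotropic receptor Grm4 at 0.43 ± 0.23 and the kainate receptor subunit Grik1 at −0.28 ± 0.15. The other members of smallest p were the delta opioid receptor Oprd1 (0.15), the endocannabinoid hydrolase Mgll (0.14), the neurotensin receptor Ntsr2 (0.15), the neuropeptide Y receptor Npy1r (−0.15) and the T-type calcium channel Cacna1i (0.15), none of them nominal.

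Of 23 chromatin regulators 1 was higher and 3 were lower at an unadjusted p under 0.05, beside 0.825% and 3.5% of all genes. These counts became 3 and 2 after median-of-ratios scaling, beside 304 and 270 of all 15264 genes. Without SNI 7 they were 8 and 4, beside 10.3% of all genes in each direction. The deacetylases Hdac1 and Hdac2 and the demethylase Kdm1a, which share repressor complexes, were the lower ones, and Kdm5c, an X-linked demethylase, the higher one. Hdac1 lay at 4.14 to 4.74 RPKM in SNI and 4.20 to 5.28 RPKM in sham libraries. Hdac2 lay at 22.5 to 26.2 RPKM in SNI and 25.3 to 30.5 RPKM in sham libraries. Kdm1a lay at 11.6 to 14 RPKM in SNI and 12.9 to 14.4 RPKM in sham libraries. For each of these 3 genes all 6 SNI libraries were below the sham median, with log2 fold changes of −0.14, −0.13 and −0.12, and Kdm5c stood at 0.13. With the GC slope as covariate they were −0.11, −0.09 and −0.08, and Kdm5c stood at 0.09. Kdm1a alone was then still nominal. Hdac2 was not nominal after median-of-ratios scaling either. Over the 23 genes the median was 0.00, with 12 above 0 (−0.00 and 11 after quantile scaling).

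Immune genes gave 1 nominal member, lower in SNI, beside 3.5% nominal and lower over all genes. Ifit2, an interferon-induced gene, lay at 1.59 to 2.32 RPKM in SNI and 1.96 to 2.93 RPKM in sham libraries (log2 fold change −0.27 ± 0.10, adjusted p = 0.78). B2m, the light chain of MHC class I, had a log2 fold change of −0.19 and its highest level in sham 4. Of 15 cytokine and interferon genes tested, 7 lay above 0 with a median of −0.00, which was 0.02 after median-of-ratios scaling, and 7 of the 22 listed were under the level filter. The haem synthesis gene Alas2 of red cells stood at −0.20.

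The SNI difference in NAc was set against that in PFC in 1 model of all 36 libraries. Of 15639 genes, 0 (0%) had a NAc minus PFC difference at an adjusted p under 0.05 and 178 (1.14%) at an unadjusted p under 0.05. The immediate-early factor Ier2 had the smallest p on the higher side, at 0.26 in NAc and −0.54 in PFC. Hist1h4i, a histone H4 gene (0.36 in NAc and −0.18 in PFC), the MAP kinase phosphatase Dusp8 (0.11 and −0.04) and Nkain2 (0.26 and −0.16) came next. On the lower side stood 9930012K11Rik (−0.17 and 0.12), 1810030O07Rik (−0.08 and 0.09), the glutathione transferase Gstm4 (−0.19 and 0.05) and Fbxo5, an inhibitor of the anaphase-promoting complex (−0.16 and 0.13). All 8 differences had an adjusted limma p of 0.999.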

How the data were processed

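RNA was sequenced from NAc of 6 SNI and 6 sham libraries. Poly-A RNA was selected and an Illumina TruSeq kit made the libraries, per the labels' protocols. The authors deposited RPKM values for 31554 genes. TopHat2, HTSeq and the build mm10 are named in the submitters' processing notes; the sources used here give neither their roles and settings nor the strand mode, so that overlapping, antisense and near-identical genes are uncertain. Whole reads, within 0.001 of an integer, were recovered for 100% of the deposited RPKM values, and these gave the depths. A gene of 1 kb at 0.5 RPKM had 15.6 reads in the shallowest NAc library, a counting error of 25.3%. No 2 libraries were copies of each other (lowest chi-square per degree of freedom 12.7 over 30 pairs).

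Surgery was tested by limma 3.58.1 (trend, under R 4.3.3) on log2(RPKM + 0.5) in genes whose mean reached 0.5 RPKM, two-sided with Benjamini-Hochberg adjustment. The pseudocount shrinks the fold changes of low genes. Voom on the recovered reads was an alternative, and called 0 genes at the adjusted threshold and 621 at an unadjusted p under 0.05. Single values were tested by exact permutation, and correlations with 100000 resamples. Coordinates and GC content (longest transcript) came from GENCODE M21, with 97.9% of gene identifiers matched. The GC slope of a library is the regression of its log2 deviations from the gene means on GC content. The scripts were tested on simulated data.

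The libraries, genes and 36 gene lists were chosen with earlier results of these data known. Named were protein-coding genes: per direction the 12 leading by p among genes with a fold of 1.3 or more, up to 8 whose groups do not overlap, 8 with a slope on Slc17a7 and 4 of the NAc minus PFC difference, then per list the 2 members of smallest p and any other at an unadjusted p under 0.05. List members at an unadjusted p of 0.1 or more are given in counts. A gene that the rule names is not reported here. Gm26387, Per1, Trerf1, Prl and Rpl5 were added after their values were seen. Of 546 listed symbols, 543 were matched. Alternatives were other pseudocounts, filters and scalings, array weights, voom, 1 model of all libraries, covariates and left-out libraries.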

Additional observations from a re-analysis of the deposited data

Results flagged for a closer look

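In groups of 6 libraries a library was picked out where its gap to the nearest other, divided by the range of the group, was above Dixon's value of 0.625. Chance picks out about 1 in 20 groups, and 194 were checked. SNI 7 was the lowest SNI library for Per1 (gap 0.796 of the range), Drd2 (0.684), Ier2 (0.652) and Adora2a (0.645). SNI 12 was the highest SNI library for Gm21836 (0.812), Nfya (0.758), Gm1673 (0.682), Abcc9 (0.675) and Sdf2l1 (0.66). SNI 8 was highest for Gh (0.778), and SNI 9 highest for Gpr17 (0.728) and lowest for Gm6592 (0.746). Among sham libraries, sham 1 was the highest for Prl (0.948), Gh (0.86) and Tipin (0.666). Sham 2 was highest for Alas2 (0.71) and Gm6592 (0.627), sham 4 for B2m (0.726), sham 5 for Per2 (0.738) and sham 6 for Gm1673 (0.638). SNI 7 also had the lowest GC slope and the highest Slc17a7 of the 12 libraries, and SNI 12 the highest first principal component.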

How the results depend on the processing

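No paired analysis was possible because SNI and sham libraries share no replicate numbers. The count of genes past the adjusted threshold (0 with all libraries) was 2 with array weights, 4 without the libraries of lowest and highest Slc17a7, 1 with Slc17a7 as covariate, 1 with Slc17a7 and the GC slope, and 0 to 3 when each library was left out. The 660 nominal genes became 1327 with no filter, 2724 with array weights, 2922 without the libraries of extreme Slc17a7, 1011 in 1 model of all 36 libraries, 1061 with the GC slope and without SNI 7, 1383 with the GC slope and without the libraries of extreme Slc17a7, and 317 (without SNI 12) to 3144 (without SNI 7) when each library was left out. The 79 with a fold of at least 1.3 became 122 and 46 with pseudocounts of 0.1 and 1, 30 with a filter of 2 RPKM, 329 with array weights, 599 without the libraries of extreme Slc17a7, 173 and 605 with the GC slope in these smaller sets, and 54 to 429 with each library left out. The 20 genes without overlap became 41 with no filter, 11 with a filter of 2 RPKM, 19 after median-of-ratios and 13 after quantile scaling. Their number was 1430 without the libraries of extreme Slc17a7 and 24 to 282 with each library left out. Genes following Slc17a7 numbered 179 without the libraries of extreme Slc17a7, 1029 with linear Slc17a7 and 341 (without SNI 12) to 630 with each library left out. With Slc17a7 as covariate, nominal genes numbered 1406 with no filter, 2786 with array weights, 4523 without the libraries of extreme Slc17a7 and 342 to 2972 with each library left out. The log2 difference of Slc17a7 ran from −1.19 to 0.30, of Drd2 from 0.092 to 0.23 and of Adora2a from 0.15 to 0.48 with each library left out. Adora2a (0.27) was −0.0011 with Slc17a7 and the GC slope, and Akap5 (0.02) was −0.010 with the GC slope and −0.013 with Slc17a7; Cdo1, at −0.0054, turned to 0.027 without SNI 7 and 0.021 after median-of-ratios scaling. Other genes whose sign turned were Mgll (−0.057), Npy1r (0.024) and Npas4 (0.066) with the GC slope and without the libraries of extreme Slc17a7, and Rpl5 (0.029) with the GC slope and without SNI 7. The causes were not tested. Of the other settings of named genes, 2022 kept direction and side of the adjusted threshold and 11 newly passed it. Because 0 genes passed it with all libraries, keeping that side says little about the nominal calls. Per2 and Irs2 with the GC slope and Fos without SNI 7 were no longer nominal. The alternatives with the GC slope were chosen after seeing the data. At 0.5 RPKM, counting error limits short genes, and with 4 libraries a group the calls rest on few degrees of freedom.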
